A study of Rattus norvegicus with 6 samples.

Results

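Genes of receptor-mediated endocytosis in the kidney were followed in the renal cortex of rats given a nitroso compound. The 9 genes were all present among the 15645 genes named on the array. They were Lrp2, Cubn, Amn, Dab2, Lrpap1, Clcn5, Ocrl, Fcgrt and Ctns, chosen by name, and they were found through the RefSeq accession of each probe. The series holds 6 samples of renal cortex, each from a male Sprague-Dawley rat that was 5 weeks old at purchase. The DNPT group (n = 3) received N,N'-dinitrosopentamethylenetetramine over 4 weeks at 200 mg/kg/day. The vehicle group (n = 3) received corn oil over the same 4 weeks. No allele or transgene was involved, and both groups had the same basal diet.

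The proximal tubule takes back nearly all protein that passes the glomerular filter. Megalin (Lrp2) and cubilin (Cubn) are very large receptors of its brush border that bind albumin, vitamin carrier proteins, hormones and many drugs, and bring them into the cell through clathrin-coated pits. The receptors then return to the surface, while most of the cargo is broken down in lysosomes, and in humans inherited defects of several of these genes cause loss of small proteins in the urine.

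RNA of every sample was read on its own 1-colour Agilent array, and a signal is given here as log2 of a probe's processed signal relative to the 75th percentile of its own array. Between 42116 and 43402 probes of 61537 were well above background in DNPT samples, against 44730 to 45167 in vehicle samples. All 3 vehicle samples and DNPT replicate 1 were on slide 1, and DNPT replicates 2 and 3 were on slide 2, so the value of DNPT replicate 1 is the only comparison within a slide. The 9 genes have 14 probes, 1 probe for Cubn, Amn, Lrpap1 and Fcgrt and 2 probes for each of the other 5. All 14 probes were well above background on all 6 arrays and none was saturated. Each gene is described first by its brighter probe.

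None of the 9 genes passed the test between DNPT and vehicle rats. Positive changes were found in 8 of the 9, which became 5 of 9 under quantile normalization and 6 of 9 with normexp background correction, and the changes ran from -0.36 for Ctns to 0.30 for Dab2 on the log2 scale. The median change was 0.14 over the 9 genes, 0.04 over the 12687 named genes tested and 0.01 over all 34915 features. The median of the 9 depended on the processing and on single samples, at 0.04 under quantile normalization with and without normexp, 0.07 with array weights, 0.07 without DNPT replicate 1, 0.07 without DNPT replicate 3 and 0.08 without vehicle replicate 3. With limma and Benjamini-Hochberg adjustment, 0 of the 9 and 0% of all features were called at an adjusted p under 0.05, and the adjusted p of the 9 genes lay between 0.410 and 0.995. The count over all features changed when single samples were left out, being 623 without DNPT replicate 1 and 3 without vehicle replicate 2. Without DNPT replicate 1 the groups lay on different slides, so slide and treatment cannot be told apart in that count. None of the 9 genes was among the called features in any of the 18 alternatives. An unadjusted p under 0.05 was reached by 1 of the 9 (Dab2), against 12.1% of all features. Without slide in the fit, the 95% confidence interval of the brighter probe lay within 1.5-fold in both directions for 7 of the 9 genes. The exceptions were Dab2 and Ctns. The dimmer Ocrl probe also went past that limit, with an interval of 1.06-fold to 1.65-fold. These intervals do not cover a difference between slides. With slide as a block, the changes ran from -0.46 for Ctns to 0.42 for Lrpap1.

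Positive changes were more common among bright features than over all features, of which 51.9% were positive. Lrp2, Cubn, Amn, Dab2 and Lrpap1 were among the 2793 features with a mean signal above 4, and 77.6% of those features had a positive change. Their median change was 0.11 with scaling to the 75th percentile and 0.01 with quantile normalization. The part of this shift in the values of the 5 genes was not tested. Of the dimmer genes, Fcgrt, Clcn5 and Ocrl also had positive changes, and Ctns a negative one.

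Lrp2 encodes megalin, a member of the low density lipoprotein receptor family. It had signals of 6.57, 6.52 and 6.55 in DNPT replicates 1, 2 and 3, against 6.44, 6.49 and 6.48 in vehicle replicates 1, 2 and 3. Every DNPT value was above every vehicle value, but the gap was small. The means were 6.55 ± 0.02 in DNPT rats and 6.47 ± 0.03 in vehicle rats (SD, n = 3 each). The change of 0.08 (SE 0.07, limma adjusted p = 0.655) corresponds to 1.05-fold, with a 95% confidence interval of 0.932-fold to 1.19-fold. The sign turned under quantile normalization (-0.04) and with normexp background correction followed by quantile normalization (-0.08). The second Lrp2 probe gave 5.89, 5.89 and 5.77 in DNPT rats, against 5.76, 5.69 and 5.61 in vehicle rats. Its change was 0.16 (SE 0.08, limma adjusted p = 0.471).

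Cubn encodes cubilin, the receptor for the complex of intrinsic factor and vitamin B12, which has no membrane-spanning part of its own. Its signals were 6.01, 5.63 and 6.07 in DNPT replicates 1, 2 and 3, and 5.85, 5.82 and 5.61 in vehicle replicates 1, 2 and 3. DNPT replicate 2 and vehicle replicate 3 were the low samples of their groups, and the groups overlapped. The SD of the DNPT group, 0.24, was the largest within a group among the 9 genes. The means were 5.91 ± 0.24 in DNPT rats and 5.76 ± 0.13 in vehicle rats (SD, n = 3 each), and the change was 0.14 (SE 0.15, limma adjusted p = 0.682), or 1.11-fold with an interval of 0.860-fold to 1.42-fold. The change of Cubn was 0.04 under quantile normalization, 0.01 when normexp was added and 0.06 with array weights. It was 0.28 without DNPT replicate 2, 0.09 without DNPT replicate 1, 0.06 without DNPT replicate 3 and 0.07 without vehicle replicate 3.

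Amn encodes amnionless, the membrane-spanning partner that carries cubilin to the cell surface. Amn had signals of 5.73, 5.84 and 5.90 in DNPT rats, against 5.53, 5.59 and 5.69 in vehicle rats. The groups did not overlap, although the lowest DNPT value lay only just above the highest vehicle value. The change was 0.22 (SE 0.09, limma adjusted p = 0.417), or 1.16-fold with an interval of 0.997-fold to 1.36-fold. Under quantile normalization the Amn groups overlapped and the change was 0.11. DNPT replicate 1, compared within slide 1, differed from the vehicle mean by 0.13.

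The sequences upstream of the 3 receptor genes are shown because these transcripts carry the uptake itself. Each is the stretch of 250 bases before the start of transcription in RefSeq (build GRCr8, strand of the gene), at chr3:74754536-74754785 on the minus strand for Lrp2, chr17:81501695-81501944 on the minus strand for Cubn and chr6:136132317-136132566 on the plus strand for Amn. Capitals mark the letters GGGCGG, the core of a GC box bound by Sp1.
Lrp2: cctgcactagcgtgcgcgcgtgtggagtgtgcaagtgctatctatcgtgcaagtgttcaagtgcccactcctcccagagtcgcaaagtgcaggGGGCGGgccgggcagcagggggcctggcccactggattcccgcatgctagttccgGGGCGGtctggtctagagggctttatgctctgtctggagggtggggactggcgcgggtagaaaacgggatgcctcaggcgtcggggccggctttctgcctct
Cubn: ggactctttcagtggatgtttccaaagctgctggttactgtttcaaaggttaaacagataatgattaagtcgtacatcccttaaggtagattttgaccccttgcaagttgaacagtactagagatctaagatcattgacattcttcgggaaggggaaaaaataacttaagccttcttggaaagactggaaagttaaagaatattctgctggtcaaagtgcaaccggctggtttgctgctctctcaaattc
Amn: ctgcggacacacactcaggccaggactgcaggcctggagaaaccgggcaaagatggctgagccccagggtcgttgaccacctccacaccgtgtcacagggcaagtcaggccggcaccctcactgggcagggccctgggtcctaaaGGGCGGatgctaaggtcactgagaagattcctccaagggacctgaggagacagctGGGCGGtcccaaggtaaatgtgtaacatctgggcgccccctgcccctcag

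The windows of Lrp2 and Amn were rich in G and C (64.4% and 62.8%) and each held 2 matches to GGGCGG, while the Cubn window had 40.0% and no match. Upstream windows were on file for 8 of the 9 genes, 9 windows in all because Clcn5 has 2 starts. The letters GGGCGG, searched on both strands, occurred in 5 of the 9 windows and in 30.5% of 33469 windows of the same length across the genome. None of the 9 windows held GTTAAT, a monomer site of HNF1 factors (6.45% of all windows), CAAAGTCCA, a core site of HNF4 factors (0.338%), the E-box CACGTG (5.59%) or the TATA box letters TATAAA (12.9%). These counts describe letters in these windows and say nothing of whether a factor binds there. In mouse kidney, HNF1 alpha is known to be needed for normal levels of megalin and cubilin.

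Because the samples are bulk tissue, fewer cells of a type and less RNA per cell cannot be told apart. All 18 proximal tubule markers on the list were tested, 12 of them with positive changes, and their median change was 0.11. Fbp1, a gluconeogenic enzyme, averaged 9.11 ± 0.14 over DNPT rats and 8.85 ± 0.06 over vehicle rats (SD, n = 3 each). Miox, an inositol oxygenase, averaged 9.09 ± 0.23 over DNPT rats and 9.01 ± 0.14 over vehicle rats. The summed linear signal of the 18 markers, relative to the 75th percentile, was 3397 to 3892 in DNPT rats and 3107 to 3364 in vehicle rats. Such a sum weights bright genes. Features with a mean signal above 4 had a median change of 0.11 with this scaling and 0.01 with quantile normalization. The part of that shift in the summed signal was not tested. Nor was the part of the marker difference in the values of the receptor genes. Podocytes also make megalin and cubilin, and the summed signal of 7 podocyte markers was 33.9 to 43.2 in DNPT rats, against 34.7 to 39.0 in vehicle rats.

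**Figure D1:**
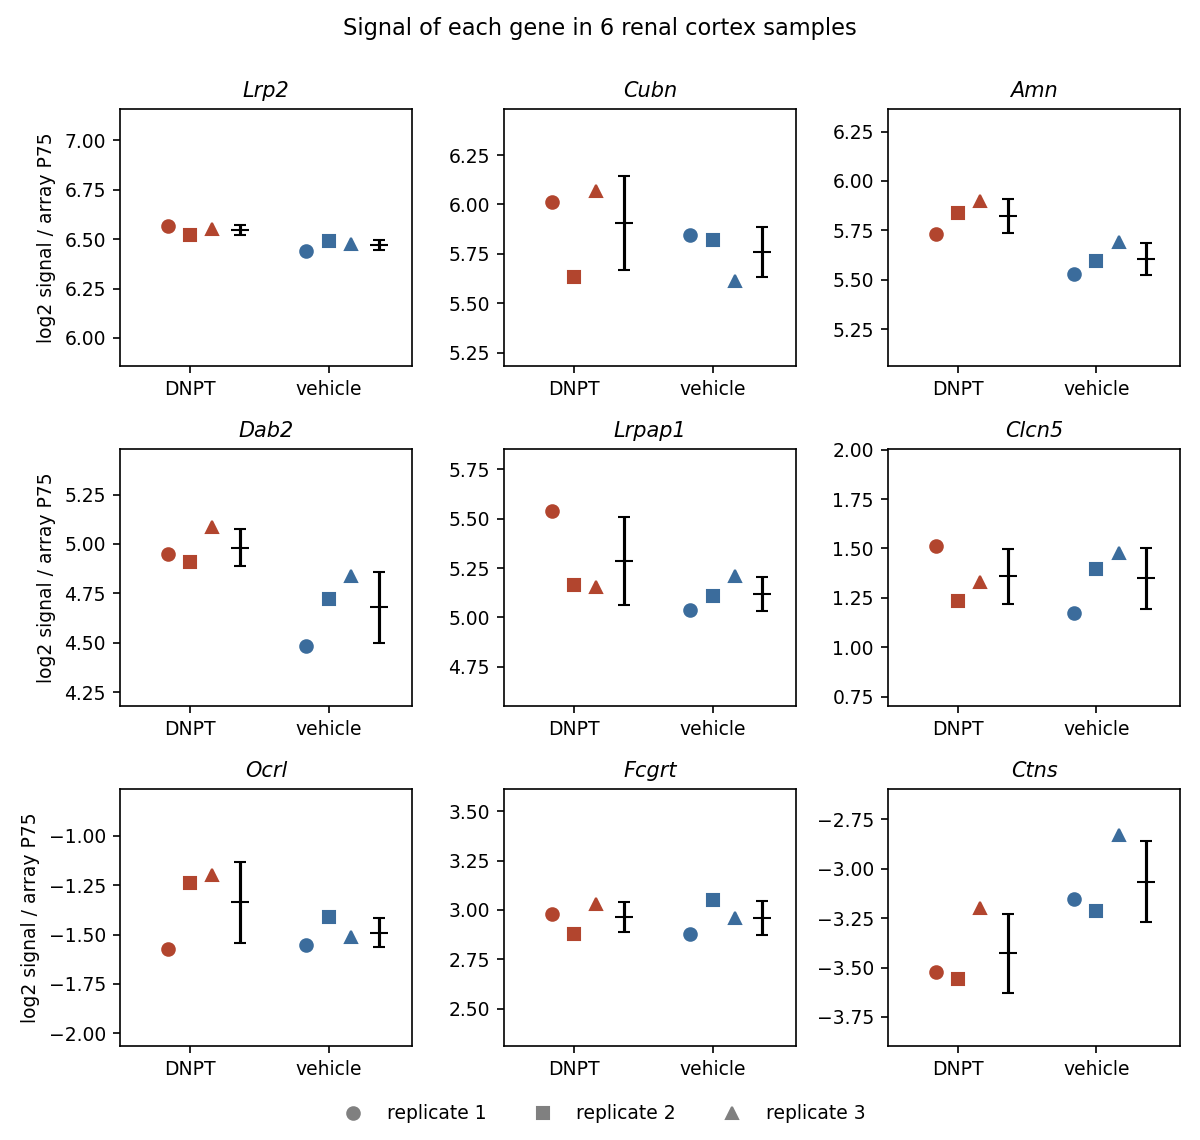
Log2 signal relative to the 75th percentile of the array (y axis, 1 panel per gene, all spanning an equal number of log2 units) in 3 DNPT rats (red, left) and 3 vehicle rats (blue, right), with the symbol giving the replicate number and black bars the mean ± SD. The groups do not overlap for Lrp2, Amn and Dab2 (they do under quantile normalization), and the Lrp2 values lie closest together.

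Dab2 encodes a clathrin adaptor that binds the tail of megalin and links it to the coat. It had signals of 4.95, 4.91 and 5.09 in DNPT replicates 1, 2 and 3, against 4.48, 4.72 and 4.84 in vehicle replicates 1, 2 and 3. No DNPT value fell within the vehicle range, and vehicle replicate 1 was the low sample. The change of 0.30 (SE 0.12) was the largest positive one of the 9 and had a limma p of 0.046 and an adjusted p of 0.410, with an interval of 1.00-fold to 1.52-fold around 1.23-fold. A larger absolute change was found in 25.0% of all features. The second Dab2 probe did not repeat it, with 2.67, 2.53 and 2.67 in DNPT rats, against 2.33, 2.63 and 2.66 in vehicle rats, overlapping groups and a change of 0.09 (SE 0.12, limma adjusted p = 0.781). Macrophages also make Dab2. All 7 macrophage markers tested, of 8 listed, had negative changes, and their summed signal was 58.7 to 77.4 in DNPT rats and 70.9 to 89.3 in vehicle rats. The part of macrophages in the Dab2 values was not tested.

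Lrpap1 encodes the receptor-associated protein, a chaperone of the endoplasmic reticulum that keeps megalin from binding ligands before it reaches the surface. Its signals were 5.54, 5.16 and 5.15 in DNPT replicates 1, 2 and 3, and 5.04, 5.11 and 5.21 in vehicle replicates 1, 2 and 3. DNPT replicate 1 alone stood above the vehicle values. The change was 0.17 (SE 0.13, limma adjusted p = 0.601). The change was 0.42 once slide was a block, a fit that takes DNPT replicate 1 alone against the vehicle rats (SE 0.11, limma adjusted p = 0.584), and 0.04 without that rat.

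Clcn5 encodes a chloride and proton exchanger that helps to acidify early endosomes, and its loss causes Dent disease in humans. Its signals were 1.51, 1.24 and 1.33 in DNPT rats, against 1.17, 1.40 and 1.48 in vehicle rats. The groups overlapped over nearly their whole range. The change was 0.01 (SE 0.12, limma adjusted p = 0.977), with an interval of 0.816-fold to 1.24-fold, and its sign depended on the samples and the scaling used, from -0.08 without vehicle replicate 1 to 0.16 with slide as a block. The second Clcn5 probe had a change of 0.13 (SE 0.12, limma adjusted p = 0.660).

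Ocrl encodes an inositol polyphosphate phosphatase of endosomes and the Golgi that is defective in Lowe syndrome in humans. Its signals were -1.57, -1.24 and -1.20 in DNPT replicates 1, 2 and 3, and -1.55, -1.41 and -1.51 in vehicle replicates 1, 2 and 3. Both DNPT rats of slide 2 lay above all vehicle values, and the DNPT rat of slide 1 lay below them. The change was 0.16 (SE 0.13, limma adjusted p = 0.607), but -0.08 with slide as a block and on slide 1 alone. Slide and treatment thus cannot be told apart in the rats of slide 2. The dimmer Ocrl probe had -4.63, -4.75 and -4.36 in DNPT rats, against -5.05, -5.05 and -4.85 in vehicle rats. There each of the DNPT values, that of replicate 1 included, exceeded the vehicle values, and the change was 0.41 (SE 0.13, limma adjusted p = 0.393). Over single probes, the DNPT group lay wholly above the vehicle group in 5 of the 14 probes of these genes and in 11.4% of all 44305 probes tested. These were both Lrp2 probes, the Amn probe, the brighter Dab2 probe and the dimmer Ocrl probe. Lrp2, Amn and Dab2 belong to the features with a mean signal above 4, of which 29.6% showed the same. An unadjusted p under 0.05 was reached by 2 of the 14 probes, against 11.8% of all probes.

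Fcgrt encodes the heavy chain of the neonatal Fc receptor, which returns albumin and IgG from endosomes to the surface or across the cell. Its signals were 2.98, 2.88 and 3.03 in DNPT rats and 2.88, 3.05 and 2.96 in vehicle rats, and the groups overlapped. The means were 2.96 ± 0.08 in DNPT rats and 2.96 ± 0.09 in vehicle rats (SD, n = 3 each). The change was 0.002 (SE 0.09, limma adjusted p = 0.995), with an interval of 0.859-fold to 1.17-fold, and its sign turned under quantile normalization (-0.05). A larger absolute change was found in 99.4% of all features. Endothelial cells and macrophages also make Fcgrt, and the summed signal of 6 endothelial markers was 75.6 to 92.1 in DNPT rats, against 71.9 to 75.5 in vehicle rats. These groups were barely apart, and the high end was DNPT replicate 2, with 80.2 in DNPT replicate 1. Such a sum weights bright genes, and 4 of the 6 markers had positive changes. The part of endothelial cells and macrophages in the Fcgrt values was not tested.

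Ctns encodes cystinosin, which exports cystine from lysosomes, and in humans its loss causes cystinosis with early failure of the proximal tubule. Ctns had signals of -3.52, -3.56 and -3.20 in DNPT replicates 1, 2 and 3, against -3.15, -3.21 and -2.83 in vehicle replicates 1, 2 and 3. DNPT replicates 1 and 2 lay below all vehicle values, while DNPT replicate 3 lay within their range. This was the only negative change of the 9 with scaling to the 75th percentile, at -0.36 (SE 0.15, limma adjusted p = 0.421), or 0.778-fold with an interval of 0.598-fold to 1.01-fold. The second Ctns probe had -3.67, -3.68 and -3.45 in DNPT rats, against -3.53, -3.76 and -3.22 in vehicle rats. Its groups overlapped and its change was -0.10 (SE 0.16, limma adjusted p = 0.817). The Ctns change stayed negative in each of the 18 alternatives, between -0.48 without DNPT replicate 3 and -0.23 with the mean of both probes.

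**Figure D2:**
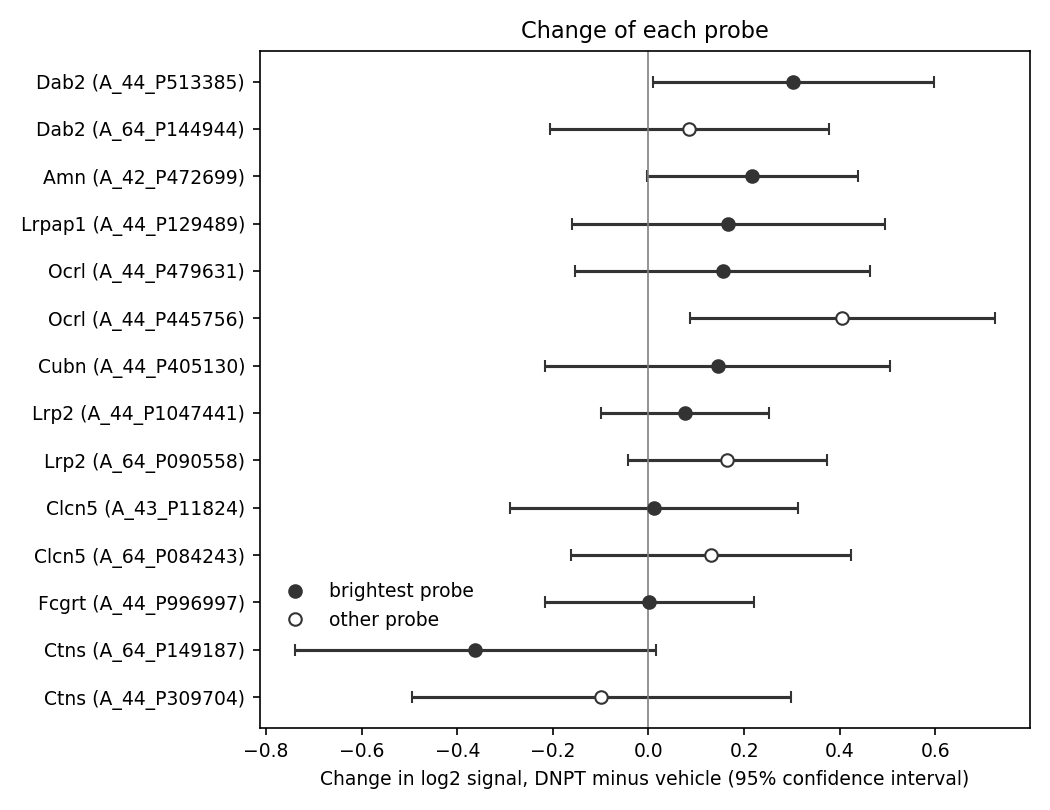
Change in log2 signal, DNPT minus vehicle, of each of the 14 probes (points) with its 95% confidence interval (bars), for the brighter probe of each gene (filled) and the other probe (open), ordered by the change of the brighter probe. The intervals of all but 2 probes, 1 of Dab2 and 1 of Ocrl, include 0, and with scaling to the 75th percentile only the 2 Ctns probes lie to the left of it.

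The distance between 2 profiles was taken as the root mean square difference of log2 signals, each centred on its own mean over the 6 samples. It grows with the spread of each gene, so that a small value between genes that vary little does not show that they moved together. Lrp2 and Fcgrt had the smallest distance of any pair (0.06), yet Lrp2 lay nearer to a flat line (0.04). Cubn and its partner Amn differed by 0.19, against 0.17 between Cubn and a flat line, and DNPT replicate 2, the lowest DNPT sample for Cubn, was not the lowest for Amn. DNPT replicates 1 and 3 each had 7 of the 9 genes above the vehicle mean, and DNPT replicate 2 had 5. Vehicle replicates 2 and 3 each had 6, and vehicle replicate 1 had 1. Vehicle replicate 1 was thus low for most of the genes.

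Among the 12675 other named genes with values on all arrays, the nearest profiles to Lrp2 were those of Mrps21, a protein of the mitochondrial ribosome (0.01), Ppp1r12c, a regulatory subunit of a protein phosphatase (0.01), and Arv1, a protein of lipid handling in the endoplasmic reticulum (0.01). The nearest profiles to Cubn were those of the transcription factor Sp4 (0.03), Cacna2d1, an auxiliary subunit of calcium channels (0.05), and Anxa7, an annexin (0.06). None of these genes passed the test, and their changes lay between 0.06 and 0.18.

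The DNPT group lay wholly above the vehicle group in 3 of the 9 genes (Lrp2, Amn and Dab2), against 11.9% of all features, and wholly below it in 0 of the 9, against 8.32%. The 3 genes belong to the bright features, of which 29.6% showed the same. The count was 3 with median scaling, 2 with normexp background correction (Amn and Dab2) and 0 under quantile normalization.

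Other genes of the same route were examined as 5 lists, and 0 members of any list passed the limma test after adjustment over all features. Receptor partners and scaffold proteins of the brush border had 13 positive and 5 negative changes (median 0.12, 18 of 22 tested), with an unadjusted p under 0.05 in 2 higher and 1 lower. The share of all features that reached such a p was 5.95% higher and 6.16% lower. The summed signal of this list was 368 to 391 in DNPT rats, against 299 to 352 in vehicle rats. Such a sum weights bright genes. The DNPT group lay wholly above the vehicle group in 29.6% of single features with a mean signal above 4. Synj2bp, a membrane protein with a PDZ domain, had a change of 0.34 (SE 0.09, limma adjusted p = 0.364), and Folr1, the folate receptor that is taken up with megalin, had 0.29 (SE 0.10, limma adjusted p = 0.393). Vldlr, a relative of megalin, averaged -2.45 ± 0.08 over DNPT rats and -2.15 ± 0.09 over vehicle rats (SD, n = 3 each), a change of -0.30 (limma adjusted p = 0.384). The bright Itm2b, a membrane protein, had a change of 0.29 with a wide error (SE 0.28). Its signal was 5.79 in vehicle replicate 2, the sample with the lowest sum, against 6.68 and 6.79 in vehicle replicates 1 and 3.

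Genes of the machinery downstream of the receptors had median changes near 0, while the summed signals, which weight bright genes, differed between lists. Genes of the clathrin coat and of vesicle scission had a median change of 0.02 (14 positive and 9 negative, 23 of 26 tested) and 0 with an unadjusted p under 0.05. Their summed signal was 657.0 to 699.9 in DNPT rats, against 596 to 655.9 in vehicle rats, so that the groups were barely apart. Of single features with a mean signal above 4, 29.6% had the DNPT group wholly above the vehicle group. The brightest members of this list were the uncoating chaperone Hspa8 (0.21, SE 0.13) and the clathrin light chain Clta (0.12, SE 0.07). Those with the smallest p were Ap2a2 (-0.30, SE 0.12, limma adjusted p = 0.416) and the endophilin Sh3gl1 (-0.25, SE 0.11, limma adjusted p = 0.421). Ap2a2 is a subunit of the adaptor complex of the plasma membrane. Genes of endosomal sorting and recycling also had a median of 0.02 (14 positive and 11 negative, 25 of 30 tested) and 0 with an unadjusted p under 0.05, and their summed signal was 157 to 163 in DNPT rats, against 155 to 164 in vehicle rats. Among them the recycling GTPases Rab11a and Rab4a were at -0.06 (SE 0.07) and 0.20 (SE 0.09), the copper and sorting protein Commd1 at 0.12 (SE 0.10) and the endosomal adaptor Appl2 at -0.30 (SE 0.13).

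Lysosomal genes had 17 positive and 12 negative changes (median 0.02, 29 of 30 tested), with an unadjusted p under 0.05 in 2 higher and 1 lower. Their summed signal was 1446 to 1565 in DNPT rats, against 1261 to 1470.1 in vehicle rats. The bright protease Ctsa averaged 8.57 ± 0.03 over DNPT rats and 8.34 ± 0.07 over vehicle rats (SD, n = 3 each), a change of 0.23 (limma adjusted p = 0.395). Ctsb averaged 8.77 ± 0.10 over DNPT rats and 8.68 ± 0.19 over vehicle rats. The dim Gla, a lysosomal galactosidase, had a change of -0.54 (SE 0.19, limma adjusted p = 0.398).

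Carriers and proteins that the receptors take up, with genes of the vitamins they bring, had 15 positive and 8 negative changes (median 0.08, 23 of 26 tested). An unadjusted p under 0.05 was reached by 3 higher and 2 lower. Gpx3, a secreted peroxidase made by the proximal tubule, was at 0.08 (SE 0.08). B2m, the light chain shared by Fcgrt and the class I molecules, was at 0.15 (SE 0.13). Mmachc, which processes vitamin B12 in the cell, was at 0.24 (SE 0.08, limma adjusted p = 0.393). Ambp, the precursor of alpha-1-microglobulin, averaged 1.14 ± 0.53 over DNPT rats and 0.17 ± 0.21 over vehicle rats (SD, n = 3 each, limma adjusted p = 0.374). Against the vehicle mean, the list had a median of -0.04 for DNPT replicate 1, -0.05 for DNPT replicate 2 and 0.24 for DNPT replicate 3. It shares Alb and Apoa1 with the hepatocyte list, of which 6 genes were tested. The summed signal of those 6 was 29.5 in DNPT replicate 3, against 10.8 and 12.1 in the other DNPT rats and 10.2 to 11.4 in vehicle rats. The part of those transcripts in the carrier list was not tested.

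**Figure D3:**
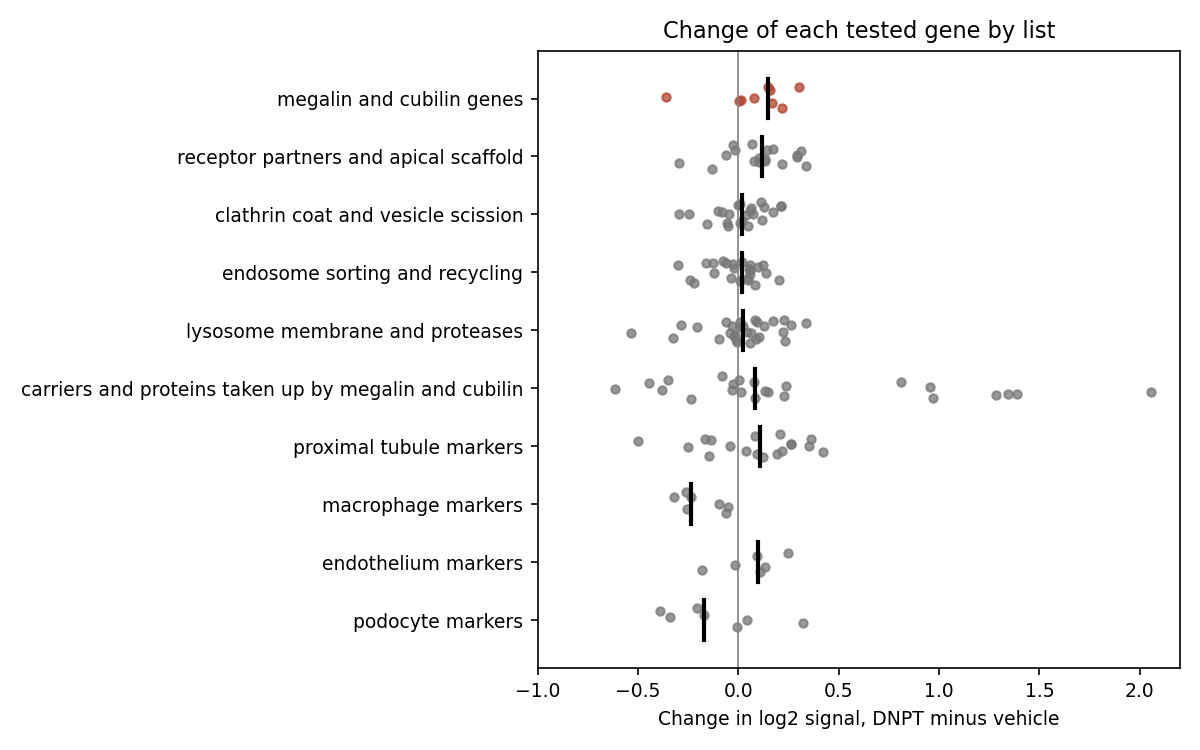
Change in log2 signal, DNPT minus vehicle, of each tested gene (points) with the median of its list (black bars), for the 9 genes (red, top row), 5 lists of the same route and 4 lists of cell type markers (grey). Except for macrophages and podocytes, list medians lie between 0.02 and 0.14, and no gene shown passed the test after adjustment.

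**Figure D4:**
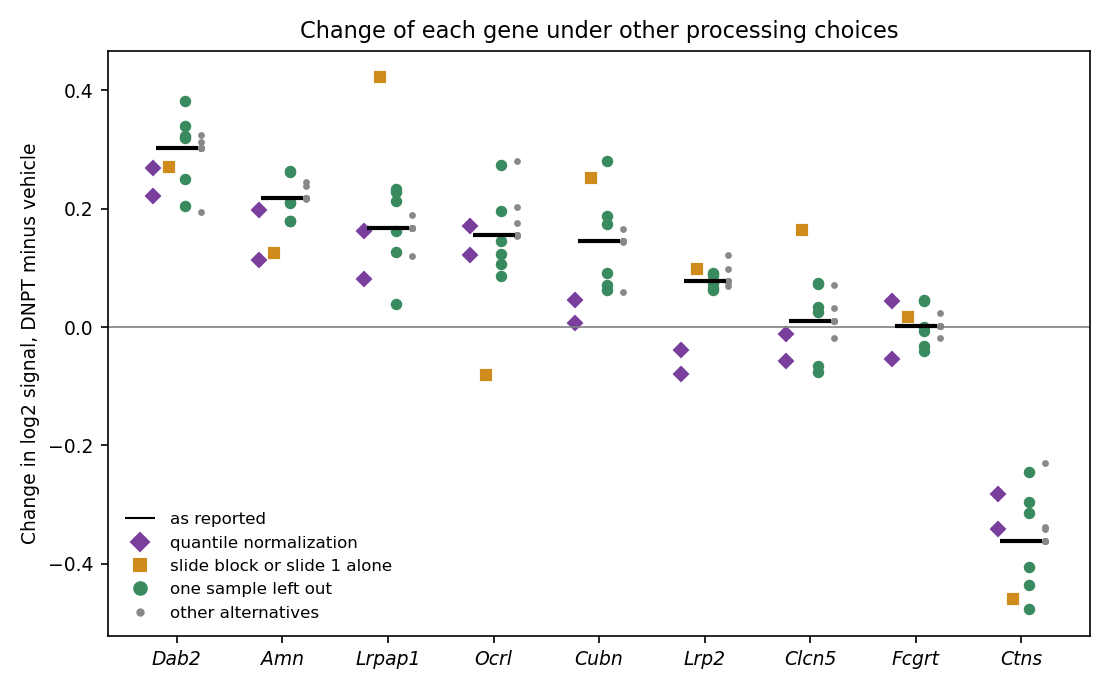
Change in log2 signal, DNPT minus vehicle, of the 9 genes as reported (black bars) and under each alternative (symbols by kind, with quantile normalization both with and without normexp background correction). Dab2, Amn, Lrpap1 and Cubn stay above 0 and Ctns below 0 throughout, while Lrp2, Clcn5, Fcgrt and Ocrl fall on both sides of 0.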

How the data were processed

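The 9 genes and all lists were chosen with earlier results of these data known. Labels group the samples as 3 DNPT and 3 vehicle animals. Per the labels, Cy3-labelled cRNA was hybridised to 1-colour Agilent arrays, and the scans were read with Agilent Feature Extraction 10.7 (per the submitters' processing notes). Spot intensity is deposited on a linear scale, and its processed form was corrected for background by that program, per the file headers. Values of the deposited matrix are a ratio, the processed signal over 1 constant per array (100% of probes with a ratio above 0.01 within 5%).

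Control spots and 113 flagged values were left out. Log2 of the processed signal minus the array's 75th percentile was tested where a probe was well above background on at least 3 arrays with at least 2 values per group. RefSeq accessions (assembly GRCr8, names only) gave 28206 of 61537 probes a gene. A gene was represented by its brightest tested probe, and unnamed probes were kept. Groups were compared with lmFit and eBayes (limma 3.58.1, R 4.3.3, two-sided, no covariates) with Benjamini-Hochberg adjustment over 34915 features. Single probes were adjusted over 44305. The procedure was tested on simulated data, with planted changes larger than those of the 9 genes and no difference between slides. Named genes were the 9, the 2 brightest and the 2 smallest p of each route list, the 2 brightest of each marker list and the 3 nearest profiles to Lrp2 and Cubn. Plots used matplotlib 3.10.9.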

Additional observations from a re-analysis of the deposited data

How the results depend on the processing

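Over 18 alternatives and 9 genes, 148 of 162 changes kept their sign, 14 reversed and 0 passed an adjusted p under 0.05 (smallest 0.189). The reversed values were -0.0394 (Lrp2), -0.0117 (Clcn5) and -0.0539 (Fcgrt) under quantile normalization, -0.0788 (Lrp2) and -0.0574 (Clcn5) with normexp, -0.0187 (Clcn5) and -0.0187 (Fcgrt) with array weights, and -0.0810 (Ocrl) both in the fit with slide as a block and for slide 1 alone. Leaving out 1 sample gave -0.0768 to 0.0745 for Clcn5 and -0.0405 to 0.0455 for Fcgrt. Positive genes numbered 5 under quantile normalization, where the DNPT group lay wholly above the vehicle group in 0 genes, a count added after the data were seen. Over all features, 2 were called with normexp, 1 with slide as a block, and 0 to 623 with 1 sample left out, the highest without DNPT replicate 1 and 3 without vehicle replicate 2. Features with an unadjusted p under 0.05 numbered 4227 as reported, 8737 without the filter on dim probes, 6525 with array weights, 2393 in the slide block fit, 2710 on slide 1 alone, and 2541 to 7281 with 1 sample left out (without vehicle replicate 2 and DNPT replicate 1, and 2574 without vehicle replicate 1). The cause was not tested, except that the filter changes how many features are tested. Without DNPT replicate 1 the groups lay on different slides, so slide and treatment cannot be told apart in the counts of 623 and 7281. Same-numbered samples did not deviate together (correlations of deviations -0.18, -0.06 and -0.18), which gave no sign that the numbers pair them. Samples with different numbers had correlations from -0.20 to 0.33. With replicate number as a block, 3094 features had such a p and 0 were called. The slide fits assume that DNPT replicate 1 varies like the other samples. The number of arrays limits the precision.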

Other observations

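The marker lists of cell types other than the proximal tubule gave these values, with 0 genes called by limma after adjustment. All 6 T cell markers had negative changes (median -0.64), each with an unadjusted p under 0.05, which 6.16% of all features reached in that direction, and their summed signal was 1.04 to 1.19 in DNPT rats and 1.41 to 1.57 in vehicle rats. Cd3d was by far the brightest of the 6 and the main part of that sum. It averaged -0.36 ± 0.16 over DNPT rats and -0.01 ± 0.06 over vehicle rats (SD, n = 3 each), a change of -0.35. Cd3g had a change of -0.49 (SE 0.16). The largest negative changes among the 6 were those of the dim genes Cd3e, Cd2 and Cd8a. The mean signals of these were -6.82, -6.11 and -5.14 in DNPT rats and -5.08, -5.30 and -4.35 in vehicle rats. All 5 intercalated cell markers had positive changes (median 0.36), among them Slc26a4, an anion exchanger, at 0.36 (SE 0.13) and Atp6v1g3, part of the proton pump, at 0.49 (SE 0.16). Principal cell markers had 3 of 5 positive changes (median 0.10), with Hsd11b2, the enzyme that inactivates corticosterone, at 0.49 (SE 0.16) and the water channel Aqp2 at -0.34 (SE 0.16). Distal convoluted and connecting tubule markers had 2 of 3 positive changes (median 0.16), with Klk1 at 0.16 and Slc12a3 at -0.11 (SE 0.16 each). Thick ascending limb markers had 1 of 5 positive changes (median -0.13), with Umod at -0.17 (SE 0.15) and Egf at 0.27 (SE 0.12). Podocyte markers had 2 of 7 positive changes (median -0.17), with Podxl at 0.32 (SE 0.19). Endothelial markers had 4 of 6 positive changes (median 0.10), with Kdr at 0.25 (SE 0.12) and Plvap at 0.11 (SE 0.11). Macrophage markers had a median of -0.24, with Lyz2 at -0.26 (SE 0.15) and C1qb at -0.06 (SE 0.19). Hepatocyte markers had 5 of 6 positive changes (median 0.71), with Apoc3 at 0.32 (SE 0.15) and F2 at -0.03 (SE 0.27). Against the vehicle mean, the median of the hepatocyte list was 0.36, -0.23 and 2.65 in DNPT replicates 1, 2 and 3, so that replicate 3 stood apart.

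Rbp4, the plasma carrier of vitamin A that megalin takes up, was chosen after its values were seen. It had a change of 2.06 (SE 0.69, limma adjusted p = 0.393), the largest among the carriers, with 2.32 ± 0.44 in DNPT rats and 0.27 ± 1.35 in vehicle rats (SD, n = 3 each).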
